A study of Mus musculus with 24 samples.

Results

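The 10 genes described here encode cytokines and chemokines that inflammatory fibroblasts secrete: Il6, Lif, Il11, Il33, Csf1, Cxcl1, Cxcl5, Cxcl12, Ccl2 and Ccl7. They were named as a set and located on the mm9 mouse annotation, and they are 10 of 22367 protein-coding genes. Each was read over its gene body with 10 kb on each side. ChIP-seq had been made from 3 kinds of cultured mouse fibroblast. Mouse embryonic fibroblasts (MEF) came from C57BL/6 embryos at embryonic day 10 to 13. Wound-healing fibroblasts (Wound) came from C57BL/6 skin wounds at day 10, and cancer-associated fibroblasts (MMTV-CAF) came from mammary tumours of MMTV-PyMT mice on the FVB/NJ strain, in which the MMTV promoter drives the oncogene in mammary epithelium. Strain and fibroblast type therefore cannot be told apart where MMTV-CAF are compared with the others.

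Every culture, WT included, had been made immortal with E6 and E7 of human papillomavirus. WT cells carried intact Prrx1, the gene of a homeodomain transcription factor of mesenchymal cells. SG cells had been given a CRISPR guide RNA against Prrx1, in all 3 types. Their control is called SgNS(WT) in the protocol, while MEF WT came from WT embryos. KI is a further MEF genotype that the labels do not spell out, and it was read from the study's methods as lacZ inserted into the homeodomain exon of Prrx1. The protocol gives that mutant mouse as 129S-Prrx1tm1Jfm/Mmmh, and the methods say that it had been backcrossed to C57BL6 without saying how far, so that any strain difference left from WT cannot be told apart from the genotype. MEF KI and MEF SG are compared with the same MEF WT lists. Every group is 1 library, so no difference below carries a replicate error or a test, and each is set beside the same measure over all genes.

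The 17 lists are peak calls. H3K27ac, a mark of active promoters and enhancers, was given as single-base summits with a −log10 p in 7 lists, and a gene's H3K27ac level here is the −log10 p summed over the summits of its window. H3K4me3, a mark of promoters in use, was given in 7 lists as regions with a width and a fold enrichment over input, and a gene's value is the widest region that covers one of its annotated starts. PRRX1 binding was given as summits in WT cells of the 3 types. The depth behind each list is unknown. The MEF KI scores were below those of MEF WT. H3K27ac summits had a median −log10 p of 11.9 in KI, the lowest of the 7 lists, against 18.5 in MEF WT. For H3K4me3 regions the median was 9.93 in KI against 28.6 in MEF WT. It was lower still in MMTV-CAF, at 7.51 in WT and 8.72 in SG, and was 11.4 in Wound SG. The H3K4me3 lists of MMTV-CAF held more regions than the others, 27339 in WT and 29166 in SG against 13125 to 19641. Of 10 fibroblast markers, 6 to 9 had H3K4me3 at a start in each list, with Lum without it in all 7, and Col3a1 and Dcn without it in both Wound lists. Of 7 leukocyte markers only Cd14 had H3K4me3 at a start, in all 7 lists, so Ptprc and Emr1 had none. The summed H3K27ac of the 7 ranged from 102 in MEF KI to 433 in MMTV-CAF SG, and was 414 in MMTV-CAF WT. The number with H3K4me3 at a start was 0 or 1 of 6 for epithelial and 0 or 1 of 5 for endothelial markers. Prrx1 itself kept H3K4me3 at its start in all 7 lists, and its summed H3K27ac was 376 (WT), 352 (SG) and 190 (KI) in MEF, 520 (WT) and 747 (SG) in MMTV-CAF, and 175 (WT) and 261 (SG) in Wound. The region over its start was likewise wider in SG than in WT in MMTV-CAF (15484 against 13259 bp) and Wound (6092 against 4606 bp) and narrower in MEF (7341 against 8628 bp). These marks do not measure the protein and so do not check the editing of Prrx1.

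In fibroblasts, many of these genes are kept ready for induction by IL-1 and TNF through NF-κB, and the IL-6 family signals back through the shared receptor chain gp130 and the JAK kinases to STAT3. Interleukin-6, leukaemia inhibitory factor and interleukin-11 are that family. Cxcl1 and Cxcl5 draw neutrophils through CXCR2, Ccl2 and Ccl7 draw monocytes through CCR2, Cxcl12 holds and guides cells that carry CXCR4, Csf1 keeps macrophages alive through CSF1R, and interleukin-33 is an alarmin read by the receptor ST2. Fibroblasts rich in these factors are set apart from contractile, α-smooth-muscle-actin-rich fibroblasts.

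The sequences below are shown because they hold PRRX1 summits that lay close together in 2 types, or a TAATTA, and the promoter motif found in 5 of the 10 members. All are from the NCBIM37 genome, which is mm9, and run 5′ to 3′. Homeodomain proteins of the paired-related class bind DNA around the letters TAATTA, and TAAT is the homeodomain core. At Il6, PRRX1 summits of MMTV-CAF and Wound lay 19 bp apart in a coding exon. The window of 120 bases around both, chr5:30339986-30340105 on the plus strand, held 1 TAATTA, in capitals, which began 2 bases after the MMTV-CAF summit and 21 bases after the Wound summit.
Il6 coding exon: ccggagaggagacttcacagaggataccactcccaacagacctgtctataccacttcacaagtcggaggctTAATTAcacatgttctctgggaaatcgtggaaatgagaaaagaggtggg
Upstream of Cxcl5, PRRX1 summits of MEF and MMTV-CAF lay 30 bp apart. The window of 131 bases around both, chr5:91183008-91183138 on the plus strand, held no TAATTA but 3 copies of TAAT on either strand, in capitals.
Cxcl5 upstream: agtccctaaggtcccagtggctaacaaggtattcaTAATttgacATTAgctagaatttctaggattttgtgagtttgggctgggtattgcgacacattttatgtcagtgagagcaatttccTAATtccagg
In an intron of Il33, the MEF summit had 1 TAATTA in its 101 bases, chr19:30014627-30014727 on the plus strand, beside an alternating tg run, and TAAT copies are in capitals.
Il33 intron: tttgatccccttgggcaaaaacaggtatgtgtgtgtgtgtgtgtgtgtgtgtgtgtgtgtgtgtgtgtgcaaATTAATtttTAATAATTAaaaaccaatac

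Over whole lists, a TAATTA lay within 50 bases of 57.3% of PRRX1 summits in MEF but 25.3% in MMTV-CAF and 31.7% in Wound. Of the members' distinct summits it lay at 1 of 2, 1 of 9 and 1 of 5, too few for a comparison. In the 250 bases before the 5′ start, TAATTA was found in 0 of the 10 members and 4.59% of all promoters.

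The promoter windows of Il6, Cxcl1 and Cxcl5 are printed because the same NF-κB motif stands in them. That motif, searched on both strands as the 10-base consensus and known by its name, was found in 5 of 10 members, Il6, Lif, Csf1, Cxcl1 and Cxcl5, and in 7.69% of all 22367 promoter windows of the same length. The AP-1 motif TGANTCA was found in 2 members, Lif and Ccl7, against 6.00% of all promoters. The C/EBP motif TTGNNCAA was found in 1, Il6, against 5.66%, and TATAAA on the gene's strand in 2, Il33 and Ccl7, against 8.35%. A match is only a run of letters and not a measured site. The windows lie before the 5′ start alone. At Lif, Il11 and Il33 the H3K4me3 region given below covered an internal start and not the 5′ start. The matches of Lif and Il33 therefore lay away from those regions. In the windows below capitals mark the NF-κB motif and, in Il6, also the C/EBP motif before it. They end at the base before the start, at chr5:30339451-30339700, chr5:91320017-91320266 and chr5:91188075-91188324, all on the plus strand.
Il6: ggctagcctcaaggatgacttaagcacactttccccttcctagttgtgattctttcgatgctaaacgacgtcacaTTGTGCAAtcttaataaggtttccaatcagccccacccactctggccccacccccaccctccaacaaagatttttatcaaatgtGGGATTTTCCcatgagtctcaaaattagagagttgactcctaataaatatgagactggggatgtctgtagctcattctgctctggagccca
Cxcl1: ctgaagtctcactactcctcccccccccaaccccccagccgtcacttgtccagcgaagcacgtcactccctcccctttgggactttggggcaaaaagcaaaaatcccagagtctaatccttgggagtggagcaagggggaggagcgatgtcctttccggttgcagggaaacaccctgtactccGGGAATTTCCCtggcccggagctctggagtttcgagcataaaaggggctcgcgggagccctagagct
Cxcl5: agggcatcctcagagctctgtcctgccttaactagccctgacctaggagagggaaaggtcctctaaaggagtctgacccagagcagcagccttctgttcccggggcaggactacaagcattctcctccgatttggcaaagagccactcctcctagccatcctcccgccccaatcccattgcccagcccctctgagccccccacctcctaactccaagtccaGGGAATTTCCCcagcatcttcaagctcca
Cxcl1 and Cxcl5 each hold 2 overlapping matches, 1 on each strand, which together form the capital run.

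The H3K27ac of most members was highest in MMTV-CAF SG. Of the 10 members, 8 had their highest summed −log10 p in MMTV-CAF SG (all except Csf1, highest in MMTV-CAF WT, and Cxcl12, highest in MEF SG), where 40.1% of the 15640 genes with a summit in any list had theirs. The MMTV-CAF SG list is also the longest of the 7, with 61603 summits. Their lowest value fell in MEF KI for 5 members, against 69.1% of genes, and in Wound WT for 3, Cxcl1, Cxcl5 and Ccl7, against 7.60%.

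**Figure D1:**
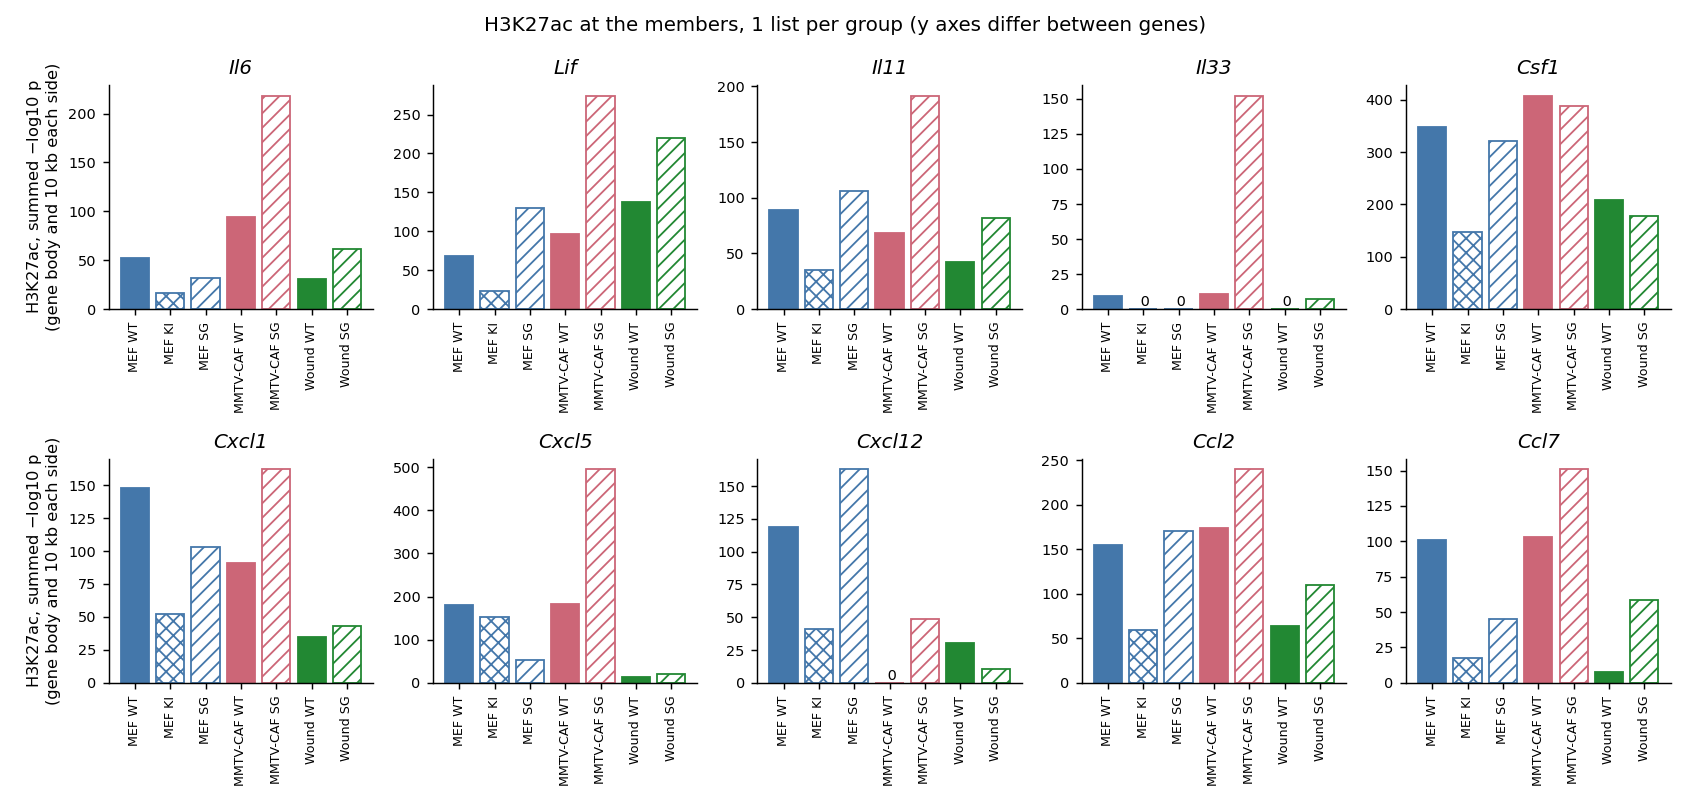
H3K27ac level of each member in the 7 lists, as the summed −log10 p of summits in the gene body with 10 kb on each side. Filled bars are WT, hatched bars SG and cross-hatched bars KI, with 1 library each, and 8 of the 10 members reach their highest bar in MMTV-CAF SG, such as Cxcl5 at 495.

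Il6 (ENSMUSG00000025746.7, chr5:30339701-30346508, plus strand) had 1 to 7 H3K27ac summits in its window. The summed −log10 p was 52.0 in MEF WT, 31.9 in MEF SG and 16.0 in MEF KI. In MMTV-CAF it was 94.3 in WT and 218 in SG, and in Wound 30.3 in WT and 61.0 in SG. The MMTV-CAF SG value was thus the highest of the 7, and MMTV-CAF WT was above the other WT lists. A single site at the start was present in all 7 lists, with a best −log10 p of 84.1 in MMTV-CAF SG and 16.0 in MEF KI, while the other 6 sites were each seen in 1 list, 5 of them in MMTV-CAF SG. The H3K4me3 region over the start was 1772 bp in MEF WT, 1279 bp in SG and 1504 bp in KI, 3384 bp in MMTV-CAF WT and 7224 bp in SG, and 1505 bp in Wound WT and 2156 bp in SG. Its fold over input was 4.25 in MMTV-CAF WT and 7.45 in SG, and 2.86 to 3.87 in the other 5 lists. The start of Il6 was marked in every list, and the MMTV-CAF SG region was wider than those of 98.3% of all genes.

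Lif (ENSMUSG00000034394.8, chr11:4157560-4172517, plus strand) differed from Il6 in being well marked in Wound. Its summed −log10 p was 68.2 in MEF WT, 130 in SG and 23.7 in KI. The values were 97.0 in MMTV-CAF WT and 274 in SG, and 137 in Wound WT and 220 in SG, so all 3 SG lists were above their WT. The site in all 7 lists lay at -62 bp from an internal start, and its best −log10 p reached 90.0 in Wound SG. H3K4me3 over a Lif start measured 1554, 1292 and 1480 bp in MEF WT, KI and SG, 2180 bp in MMTV-CAF WT and 6913 bp in SG, and 2918 bp in Wound WT and 5424 bp in SG. The fold over input hardly moved in MMTV-CAF (7.67 in WT and 7.40 in SG), so the region there was longer at a like height.

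Il11 (ENSMUSG00000004371.7, chr7:4724669-4734460, minus strand) carried 2 to 4 summits. Its summed −log10 p was 89.5 in MEF WT, 106 in SG and 34.8 in KI, then 68.1 in MMTV-CAF WT and 192 in SG, and 42.5 in Wound WT and 81.5 in SG. The site shared by all 7 lists was not at a start but at -6208 bp from the nearest, with a best −log10 p of 112 in MMTV-CAF SG. Only MMTV-CAF SG had summits within 1 kb of an Il11 start. In the other lists the whole sum came from sites farther from a start than that. A region of H3K4me3 covered a start in MMTV-CAF WT (2074 bp) and SG (2463 bp) and in Wound SG (1742 bp), with a fold over input of 6.12, 8.57 and 4.74. Elsewhere no region covered one, but the nearest lay 471 bp away in MEF WT, 142 bp in MEF SG and 375 bp in Wound WT, and 5538 bp away in KI.

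Il33 (ENSMUSG00000024810.9, chr19:29999604-30035194, plus strand), the alarmin, was marked mainly in MMTV-CAF SG. Its window held 1 summit in MEF WT (−log10 p 9.38), 1 in MMTV-CAF WT (10.6) and 1 in Wound SG (7.34), and was listed at 0 in MEF KI, MEF SG and Wound WT. MMTV-CAF SG alone held 9 summits, with a summed −log10 p of 152. The strongest site of that list lay at -5224 bp from an internal start, with a −log10 p of 31.9, and was the site of the single MMTV-CAF WT summit. H3K4me3 covered a start of Il33 only in MMTV-CAF SG, at 1751 bp and 3.11-fold over input. In the other lists the nearest region was 2698 bp (Wound WT) to 78229 bp (MEF KI) away.

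**Figure D2:**
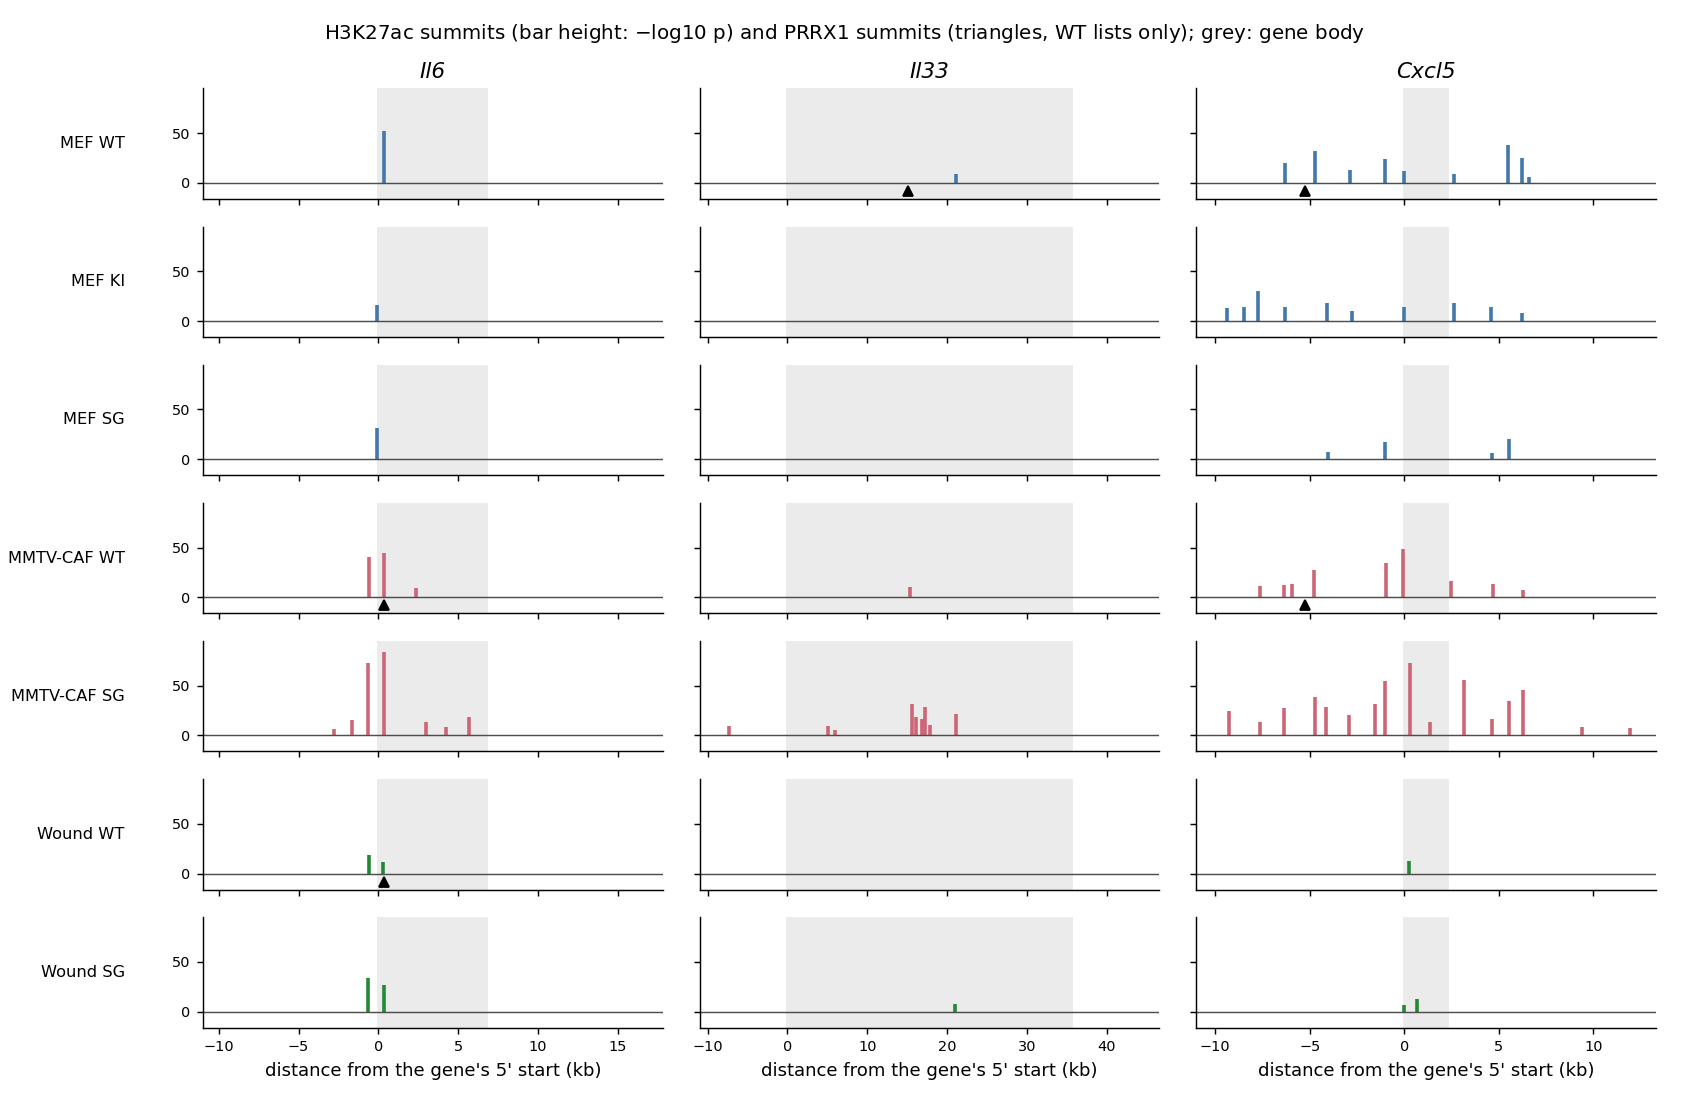
H3K27ac summits along Il6, Il33 and Cxcl5 in the 7 lists, by distance from the gene's 5′ start in kb, with bar height the −log10 p, grey the gene body and triangles the PRRX1 summits of WT lists. The MMTV-CAF SG row holds 7 summits at Il6, 9 at Il33 and 16 at Cxcl5, the most of any list at each gene.

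Csf1 (ENSMUSG00000014599.4, chr3:107543966-107563387, minus strand), the macrophage growth factor, had the highest H3K27ac per kb of window of the 10 members in MEF WT, MEF SG, MMTV-CAF WT and Wound WT. Its log2 ratio of SG to WT was the nearest to 0 of the 10 in all 3 types, at -0.11 (MEF), -0.07 (MMTV-CAF) and -0.22 (Wound). The all-gene medians were 0.45, 0.24 and 0.55, so beside them Csf1 was low in SG rather than level. Ratios below that of Csf1 made up only 14.4% (MEF), 27.2% (MMTV-CAF) and 7.09% (Wound) of those tested. Its summed −log10 p was 348 in MEF WT, 322 in SG and 147 in KI, with 17, 14 and 10 summits. In MMTV-CAF it was 408 in WT and 388 in SG, and in Wound 209 in WT and 178 in SG. Per kb of window, Csf1 stood above 92.5% to 99.3% of all genes in each list. Of its 31 sites, 2 were present in all 7 lists, both downstream of the gene, 17561 and 13183 bp from the nearest start. The site within 500 bp of the 5′ start was in 6 lists, and in MMTV-CAF WT the nearest summit instead lay 1.326 kb inside the gene from that start, at a −log10 p of 92.0.

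H3K4me3 at Csf1 measured 4806 bp in MEF WT, 4879 bp in MEF SG, 5518 bp in Wound WT and 5598 bp in Wound SG. MMTV-CAF WT had a region of 15703 bp, wider than those of 99.9% of all genes, and MMTV-CAF SG one of 5746 bp. The fold over input went the other way, 7.12 in WT and 12.1 in SG. Over the whole window H3K4me3 regions covered 19741 bp in 5 regions in MMTV-CAF WT and 7325 bp in 3 regions in SG, so the shorter region in SG was not made up for by others. In MEF KI no region covered a start, but 1 of 3372 bp ended 42 bp away.

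The neutrophil chemokines Cxcl1 (ENSMUSG00000029380.10, chr5:91320267-91322141, plus strand) and Cxcl5 (ENSMUSG00000029371.5, chr5:91188325-91190651, plus strand) lie 130 kb apart in 1 chemokine cluster, and their windows share no summit. Cxcl1 had a summed −log10 p of 148 in MEF WT, 103 in SG and 52.1 in KI, 90.6 in MMTV-CAF WT and 162 in SG, and 34.8 in Wound WT and 43.5 in SG. Of its 8 sites 2 were in all 7 lists, at 102 and -9024 bp from the start. The H3K4me3 region over its start measured 2402 bp in MEF WT, 1271 bp in SG and 2539 bp in KI, then 3278 bp in MMTV-CAF WT against 4206 bp in SG, and 1088 bp in Wound WT against 2464 bp in SG. Cxcl1 was thus marked at its start in every list, with the narrowest region in Wound WT.

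Cxcl5 differed by type, with few summits in Wound. Its summed −log10 p was 180 in MEF WT with 9 summits, 153 in KI with 10 and 51.9 in SG with 4. MMTV-CAF WT had 184 over 9 summits and SG 495 over 16, and Wound had 12.6 in WT and 19.9 in SG. Per kb of window the MMTV-CAF SG value was above 99.97% of all genes, and the Wound values were above 57.1% and 56.1%. H3K4me3 covered its start in MMTV-CAF WT (3617 bp, 6.71-fold over input), MMTV-CAF SG (4879 bp, 7.21-fold) and Wound WT (789 bp, 3.78-fold). In the MEF lists and in Wound SG the nearest region was 116454 to 116561 bp away, although the MEF WT and KI lists held 9 and 10 H3K27ac summits at the gene.

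Cxcl12 (ENSMUSG00000061353.5, chr6:117118553-117131385, plus strand), which retains cells that carry CXCR4, had its highest sums in MEF SG and MEF WT. In MEF the summed −log10 p was 119 in WT, 163 in SG and 41.1 in KI. MMTV-CAF WT was listed at 0, and MMTV-CAF SG had 1 summit of 48.3 at the start. Wound WT had 30.5 and Wound SG 10.6. H3K4me3 over its start measured 5603 bp in MEF WT, 4351 bp in SG and 3243 bp in KI, and 3279 bp in Wound WT and 2293 bp in SG. In MMTV-CAF SG the region was 2165 bp, the narrowest, but had the highest fold over input, 11.0 against 4.05 to 7.31 in the MEF and Wound lists. In MMTV-CAF WT none covered the start, but a region of 1218 bp at 3.34-fold lay 13 bp from it.

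The monocyte chemokines Ccl2 (ENSMUSG00000035385.5, chr11:81849073-81850955, plus strand) and Ccl7 (ENSMUSG00000035373.2, chr11:81859214-81861027, plus strand) are 8.26 kb apart, so that their windows overlap by 11.7 kb and share 1 to 7 summits in each list. Their values are not independent. For Ccl2 the summed −log10 p was 154 in MEF WT, 171 in SG and 59.4 in KI, 174 in MMTV-CAF WT and 240 in SG, and 63.3 in Wound WT and 110 in SG. The site at -2922 bp from the Ccl2 start was in all 7 lists and was the strongest of the window in each of them, at 58.0 in MMTV-CAF WT and 19.2 in MEF KI. For Ccl7 the sum was 101 in MEF WT, 45.0 in SG and 17.4 in KI, 103 in MMTV-CAF WT and 151 in SG, and 7.57 in Wound WT and 58.6 in SG. The summit near the Ccl7 start was absent from MEF KI, MEF SG and Wound WT.

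H3K4me3 covered the Ccl2 start in MMTV-CAF WT (5283 bp), MMTV-CAF SG (5122 bp) and Wound SG (2418 bp), and the Ccl7 start in the same 3 lists (3767, 3456 and 681 bp). In MMTV-CAF SG the Ccl2 region also covered a start of Gm17268. MEF WT had regions of 1321 and 479 bp that stopped 39 bp short of the Ccl2 start and 22 bp short of the Ccl7 start. In MEF KI, MEF SG and Wound WT the nearest region lay 717720 to 727958 bp from either start.

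**Figure D3:**
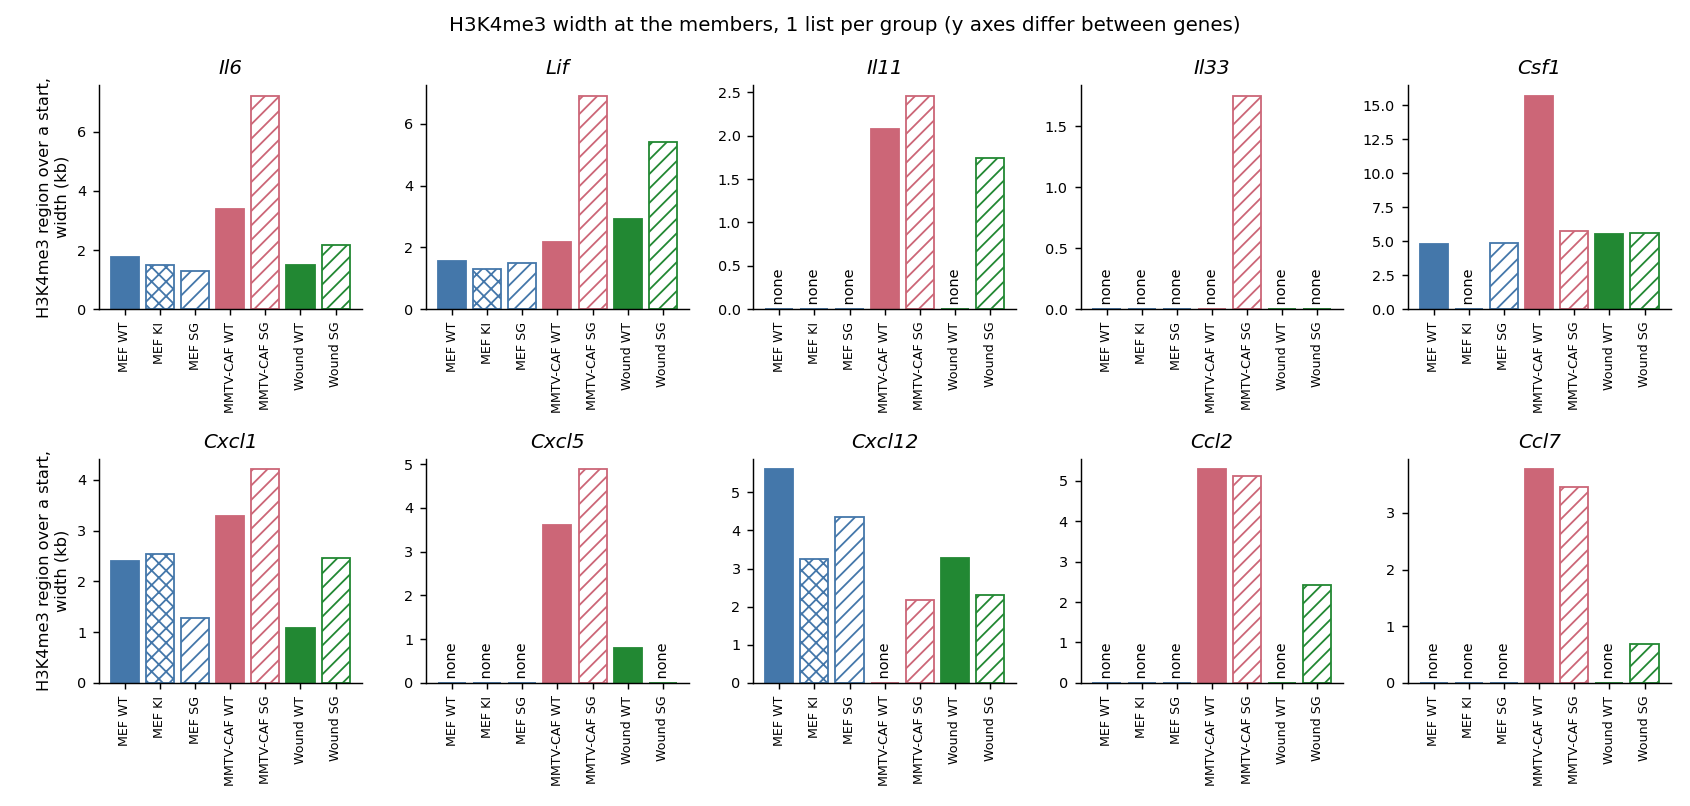
Width in kb of the widest H3K4me3 region that covers an annotated start of each member, in the 7 lists, with filled bars WT, hatched bars SG and cross-hatched bars KI, 1 library each. "None" marks lists with no region over a start, and all 10 members have a region in MMTV-CAF SG, against 4 to 8 in the other lists. Of all genes, 52.9% have a region in MMTV-CAF SG and 41.4% (MEF KI) to 55.2% (Wound SG) in the other lists.

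Between WT lists, fewer members differed in H3K27ac between MEF and MMTV-CAF than between either and Wound, and this order did not hold for H3K4me3 at the starts. The shares of all genes called, given below, fell in the same order for H3K27ac, so it is not particular to the members. The Wound WT list is also the shortest of the WT lists, with 33465 summits against 44918 in MEF and 53873 in MMTV-CAF. The difference was called at 2-fold of the summed −log10 p after 10 was added to both sums. In MMTV-CAF against MEF, 1 of 10 was lower (Cxcl12; 6.26% of all genes were lower) and 0 were higher (13.3%). On the log2 scale the median ratio was 0.06 for the members and 0.29 for all genes, and 2 of 10 members were above that of all genes. In Wound against MEF, 5 of 10 were lower (Cxcl1, Cxcl5, Cxcl12, Ccl2 and Ccl7; 21.4% of all genes) and 0 higher (1.94%). The median was -1.06 for the members and -0.50 for all genes, with Lif alone above the latter. The 5 genes lower in Wound are chemokines, of which Ccl2 and Ccl7 share summits. Il11 (1.90-fold), Csf1 (1.63-fold) and Il6 (1.54-fold) had lower values too without reaching 2-fold, and Il33 had 1 summit in MEF and none in Wound. At 1.5-fold 9 of 10 were lower, beside 44.5% of all genes.

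MMTV-CAF against Wound gave 6 members higher (Il6, Il33, Cxcl1, Cxcl5, Ccl2 and Ccl7; 35.6% of all genes) and 1 lower (Cxcl12; 2.26%). Among them Cxcl5 was 8.60-fold and Ccl7 6.43-fold higher. The Il33 value rests on a single MMTV-CAF summit, since the Wound list had none. The median log2 ratio was 1.10 for the members and 0.80 for all genes. Once ratios were centred on the latter, only Cxcl5 and Ccl7 were still called higher, and Lif was called lower beside Cxcl12.

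The H3K4me3 widths of members covered in both lists were called at 1.5-fold. In MMTV-CAF against MEF, 2 of 4 were wider (Il6 and Csf1; 29.0% of all genes) and 0 narrower (2.12%). In Wound against MEF, 2 of 5 were narrower (Cxcl1 and Cxcl12; 6.01%) and 1 wider (Lif; 4.10%). In MMTV-CAF against Wound, 4 of 5 were wider (Il6, Csf1, Cxcl1 and Cxcl5; 36.5%) and 0 narrower (2.21%). A region over a start was present in MMTV-CAF and not in MEF for 4 of 5 members without one in MEF (Il11, Cxcl5, Ccl2 and Ccl7; 4.77% of such genes), and 1 of 5 was without it in MMTV-CAF alone (Cxcl12; 5.54%). When a region within 1 kb of a start was enough these counts were 1 of 2 (Cxcl5; 5.01%) and 0 of 8 (5.50%). Wound against MEF gave 1 of 5 present in Wound only (Cxcl5; 6.22%) and 0 of 5 in MEF only (2.48%), or 1 of 2 (Cxcl5; 7.08%) and 2 of 8 (Ccl2 and Ccl7; 1.47%) within 1 kb. MMTV-CAF against Wound gave 3 of 4 in MMTV-CAF only (Il11, Ccl2 and Ccl7; 4.52%) and 1 of 6 in Wound only (Cxcl12; 7.97%). Widths of all genes were also larger in MMTV-CAF WT, with a median of 3038 bp against 2243 bp in MEF WT and 2074 bp in Wound WT.

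With the guide RNA against Prrx1, most members stood above the median of all genes in MMTV-CAF and below it in MEF. In MMTV-CAF SG against WT, 6 of 10 were higher in H3K27ac (12.9% of all genes): the 3 IL-6 family genes, Il33, Cxcl5 and Cxcl12. None was lower (3.86%). On the scale of the sum plus 10, Il6 was 2.19-fold higher, Lif 2.66-fold, Il11 2.58-fold, Cxcl5 2.60-fold and Il33 7.90-fold. For Cxcl12 no fold is given, because WT was listed at 0. On the log2 scale the median ratio was 1.25 for the members and 0.24 for all genes, and 9 of 10 members were above the median of all genes, with Csf1 (-0.07) below. Counterparts within 500 bp were found in SG for 39 of 46 distinct WT summits of the members, or 84.8%, against 63.9% of all WT summits, while the distinct summits of the members numbered 46 in WT and 79 in SG. Counted by the number of summits in place of their sum, 3 members (Il6, Il33 and Cxcl12) were higher, beside 13.0% of all genes. Summed H3K27ac of the 7 leukocyte markers was 414 in WT and 433 in SG, of the 6 epithelial markers 147 and 205, of the 5 endothelial markers 130 and 268, and of the 10 fibroblast markers 2619 and 2400, and their part in the result was not tested.

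In MEF SG against WT, 2 of 10 were lower (Cxcl5, 3.07-fold, and Ccl7, 2.02-fold; 2.67% of all genes) and 0 higher (13.1%). The median log2 ratio was -0.30 for the members and 0.45 for all genes, and Lif (0.84) was the only member above the median of all genes. The sign of the members' median turned with the window and the list length, to 0.07 with 2 kb flanks, 0.18 with 50 kb flanks and 0.13 in lists of equal size, where the medians of all genes were 0.45, 0.45 and 0.49. Il33 had 1 summit in WT and none in SG. Of 55 distinct WT summits, 29 had a counterpart in SG, or 52.7%, against 68.2% of all WT summits. At Cxcl5 2 of 9 WT summits had a counterpart. The leukocyte markers summed to 220 in WT and 411 in SG, the epithelial to 98.9 and 256, the endothelial to 67.7 and 155 and the fibroblast markers to 1201 and 1274, and their part was not tested.

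In MEF KI against WT, 8 of 10 were lower, all except Il33 and Cxcl5, but so were 73.5% of all genes, and 0 were higher (1.79%). On the log2 scale the median ratio was -1.23 for the members and -1.41 for all genes, and once ratios were centred on the latter 0 of 10 were lower (9.46% of all genes) and 1 was higher (Cxcl5; 8.72%). Cxcl5, at -0.22, was higher relative to WT than 93.6% of genes. The KI and SG lists thus placed Cxcl5 differently, since in SG its log2 ratio was -1.62 and higher than that of 1.03% of genes. Counterparts were found in KI for 27 of the 55 WT summits, or 49.1%, against 44.3%.

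In Wound SG against WT, 1 of 10 was higher (Ccl7; 19.5% of all genes) and 0 lower (1.04%). Ccl7 went from 1 summit to 5, 3.90-fold on the same scale, and 4 of those 5 also lie in the window of Ccl2. The median log2 ratio was 0.68 for the members and 0.55 for all genes, and 6 of 10 members were above the latter. Cxcl12, at -0.98, was below all but 1.12% of genes. Counterparts were found for 22 of 37 WT summits, or 59.5%, against 67.7%. Here the sums were 260 and 342 for leukocyte, 54.6 and 85.5 for epithelial, 145 and 286 for endothelial and 1052 and 809 for fibroblast markers, WT before SG, and their part was not tested either.

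**Figure D4:**
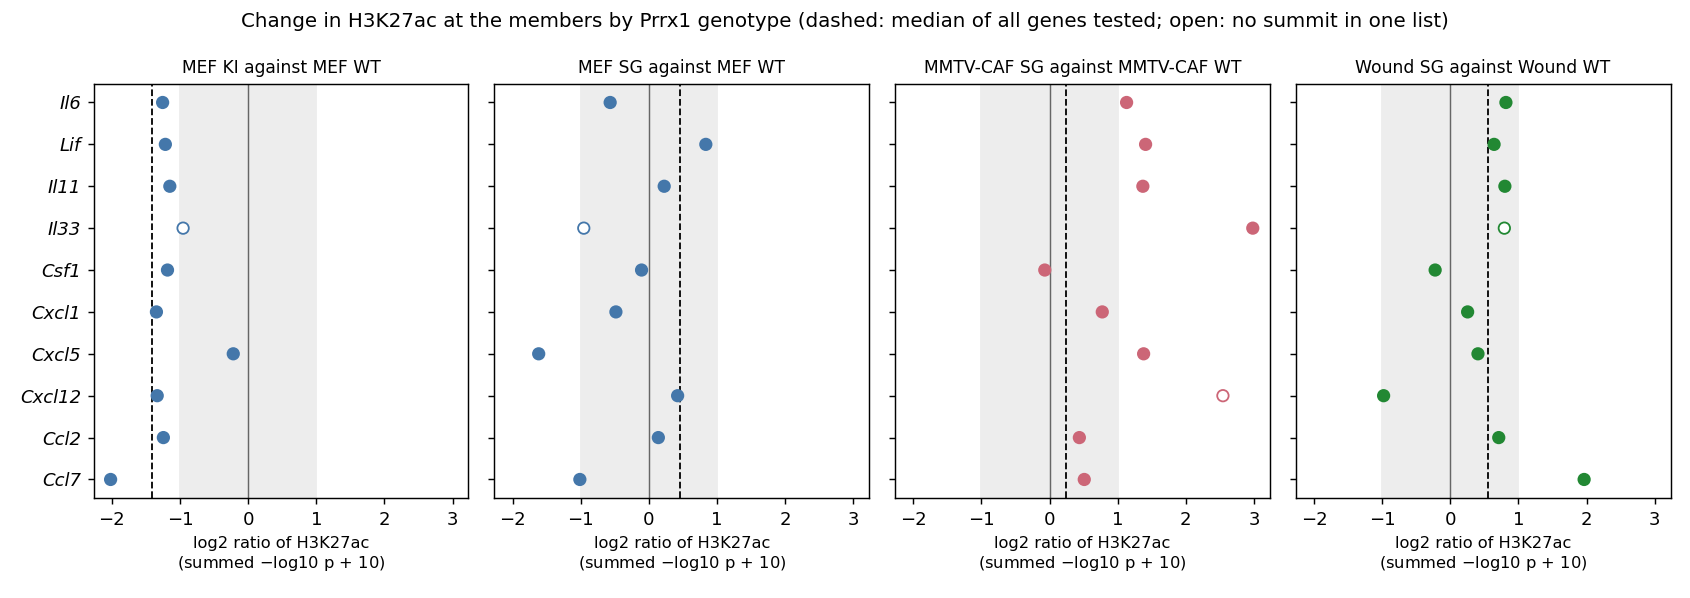
Log2 ratio of H3K27ac (summed −log10 p plus 10) of each member in the 4 comparisons of Prrx1 genotype, with open circles where one of the lists had no summit, grey the range below 2-fold and the dashed line the median of all genes tested. In MMTV-CAF 9 of 10 members lie to the right of the dashed line, and in MEF SG 1 of 10 does.

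H3K4me3 at the starts followed H3K27ac in part. In MMTV-CAF SG, 2 of 8 members with a region in both lists were wider (Il6, 2.13-fold, and Lif, 3.17-fold; 4.95% of all genes) and 1 was narrower (Csf1, 2.73-fold; 5.87%). Of the 2 members without a region in WT, Il33 and Cxcl12, both had one in SG (4.06% of genes without a WT region gained one), and 0 of 8 lost theirs (2.67%). The Cxcl12 count depends on 13 bp, as given above. Regions over 4 kb were found at 2 members in MMTV-CAF WT and at 6 in SG, against 15.1% and 12.8% of all genes.

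In MEF SG, 1 of 5 was narrower (Cxcl1, 1.89-fold, with a fold over input of 3.94 in WT and 4.06 in SG; 5.04%), 0 wider (0.605%), 0 of 5 lost (4.04%) and 0 of 5 gained (0.906%). In MEF KI, 1 of 4 was narrower (Cxcl12, 1.73-fold; 25.0%) and 0 wider (0.544%), while 1 of 5 lost its region (Csf1; 22.6%) and 0 of 5 gained one (0.724%). In Wound SG, 2 of 5 were wider (Lif, 1.86-fold, and Cxcl1, 2.26-fold; 11.6%) and 0 narrower (1.73%). Of 4 members without a region in Wound WT, 3 had one in SG (Il11, Ccl2 and Ccl7; 4.14%), and 1 of 6 lost its region (Cxcl5; 2.43%). With regions of a −log10 p of at least 10 only, 0 of 6 had gained one in Wound SG (2.55%). The Cxcl5 region of Wound WT was a weak call, 789 bp at a −log10 p of 5.99, and its loss was not called in lists of equal size.

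PRRX1 summits at these genes were weak for their lists. In MEF WT, 2 of 10 members had a summit in the window (Il33 and Cxcl5; 7.03% of all genes). In MMTV-CAF WT, 5 of 10 had one (Il6, Csf1, Cxcl5, Ccl2 and Ccl7; 22.1%), and in Wound WT 4 of 10 (Il6, Csf1, Ccl2 and Ccl7; 16.8%). Lif, Il11, Cxcl1 and Cxcl12 had none in any type. The distinct summits numbered 2, 9 and 5, and the best −log10 p at a member was 6.72 (MEF), 6.93 (MMTV-CAF) and 6.32 (Wound), each at or below the median of its list (8.41, 6.94 and 6.32). In the MMTV-CAF list 5 of the 9 were below 5, as were 17.6% of all its summits. At a minimum of 10 no member had a summit in any type, beside shares of all genes of 2.98% (MEF), 5.61% (MMTV-CAF) and 2.90% (Wound).

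The Il6 summit printed above lay 25 bp from an H3K27ac summit and inside the H3K4me3 region of MMTV-CAF WT, at a −log10 p of 4.64, and 21 bp from an H3K27ac summit in Wound WT, at 6.28. The Cxcl5 upstream summit had a −log10 p of 6.72 in MEF and 4.39 in MMTV-CAF, with the nearest H3K27ac summit 555 and 448 bp away. At Csf1 there were 4 summits in MMTV-CAF and 2 in Wound, 1 of the latter 17 bp past the nearest annotated start and 0.265 kb past the 5′ start, and none was shared within 500 bp. At Ccl2 the Wound summit lay at -2411 bp from the start, 214 bp from an H3K27ac summit, at 5.39, and the MMTV-CAF summits lay 3065 and 3901 bp downstream. The Il33 summit of MEF, at 5.95, was 6099 bp from the nearest H3K27ac summit of that list and 261 bp from the single one of MMTV-CAF WT. PRRX1 was listed for WT cells only, so binding in SG and KI is not analysed here.

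Clusters of H3K27ac summits, stitched at the distance customary for super-enhancers, were ranked by their summed −log10 p, and those above the bend of the ranked curve were called large. Csf1 touched a large cluster in all 7 lists, at rank 6 of 18313 in MEF WT and 20 of 18506 in MMTV-CAF WT. Those clusters spanned 94.7 kb in MEF WT and 99.1 kb in MMTV-CAF WT, beyond the Csf1 window of 39.4 kb. They summed to 698 and 864, against 348 and 408 inside the window, so the ranks also rest on summits outside it. In MEF WT, 5 members did so (Csf1, Cxcl1, Cxcl5, Ccl2 and Ccl7; 10.4% of all genes), in MEF KI 3 (Csf1, Cxcl1 and Cxcl5; 4.06%) and in MEF SG 2 (Csf1 and Il11; 11.4%). In MMTV-CAF WT there were 4 (Csf1, Cxcl5, Ccl2 and Ccl7; 10.8%), and in SG 6, with Lif and Cxcl1 added (10.5%). Wound WT had 2 (Lif and Csf1; 7.39%) and Wound SG 3, with Cxcl1 added (11.9%). Ccl2 and Ccl7 shared 1 cluster in each of these lists, and the Cxcl5 cluster went from rank 1080 in MMTV-CAF WT to 128 in SG.

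The partners of these factors were read from lists of genes in the same way, and all counts are of genes with a summit in at least 1 of the lists compared. They stand beside the shares of all genes given above, which were 12.9% higher and 3.86% lower in MMTV-CAF SG, 13.1% and 2.67% in MEF SG, and 19.5% and 1.04% in Wound SG, and no comparison is drawn from a count of 1 or 2 in lists this short. Of the receptors, 2 of 7 were higher in MMTV-CAF SG, Cxcr7, a second receptor of CXCL12, and Lifr, the receptor of LIF, with a list median log2 ratio of 0.83. In MEF SG 1 of 7 was higher (Csf1r) and 1 lower (Il6st, which encodes gp130), and in Wound SG 2 of 8 were higher (Cxcr7 and Csf1r). Genes of NF-κB and IL-1 signalling had a summit in every list for all 10, and 1 of 10 was higher in MMTV-CAF SG (Il1r1, the IL-1 receptor), 1 in MEF SG (Ikbkb) and 4 in Wound SG (Il1r1, Nfkb1, Relb and Tnfaip3). Of 7 JAK-STAT and C/EBP genes, 0 were called in MMTV-CAF SG or MEF SG and 1 was higher in Wound SG (Stat3). The median log2 ratios of the NF-κB and JAK-STAT lists were 0.61 and 0.69 in MMTV-CAF SG, 0.60 and 0.13 in MEF SG, and 0.56 and 0.37 in Wound SG, where those of all genes were 0.24, 0.45 and 0.55. Among the neighbours of the members in the 2 chemokine clusters, those called in MMTV-CAF SG and MEF SG were all of the Cxcl cluster, where the windows of Ppbp and Pf4 overlap that of Cxcl5 and the window of Cxcl2 overlaps that of Cxcl1. In MMTV-CAF SG 5 of 8 were higher (Ppbp, Pf4, Cxcl3, Cxcl15 and Cxcl2), with a median log2 ratio of 1.28, and in MEF SG 3 of 8 were lower (Ppbp, Pf4 and Cxcl2), with a median of -0.91. In the Ccl cluster the log2 ratios of Ccl1, Ccl8 and Ccl11 were 0.80, 0.69 and 0.00 in MEF SG and 0.14, 0.12 and 0.98 in MMTV-CAF SG, none past 2-fold, and in Wound SG 2 of 3 neighbours were higher (Ccl11 and Ccl8). These neighbours had almost no H3K4me3 at their starts, 1 of 9 in MMTV-CAF WT and 0 of 9 in the other 6 lists.

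Of 13 other inflammatory genes, 4 were higher in MMTV-CAF SG (Cxcl10, Saa3, Ccl5 and Csf3; 12.9% of all genes) and 1 was lower in MEF SG (Ccl20; 2.67%). Of 12 in Wound, 6 were higher in SG (Ptgs2, Cxcl10, Ccl5, Has2, Has1 and Tslp; 19.5%). Of 9 contractile genes, 2 were lower in MMTV-CAF SG (Tagln and Acta2, the latter encoding α-smooth-muscle actin; 3.86% of all genes). In Wound SG 1 was lower (Acta2; 1.04%), and in MEF SG 1 was higher (Tagln; 13.1%). The median log2 ratio of the contractile list was 0.52 in MMTV-CAF SG, above that of all genes. In MEF KI the lower genes were 4 of 6 receptors, 6 of 10 NF-κB, 7 of 7 JAK-STAT, 5 of 8 neighbours, 8 of 13 other inflammatory and 6 of 9 contractile genes, beside the 73.5% of all genes.

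Likeness across the 7 lists was read from each gene's percentile of H3K27ac per kb of window within its list, not from the sums themselves. The members most alike were Cxcl5 and Ccl2, with a Spearman rho of 0.96, and Il33 and Ccl7, also 0.96. Lif was least like the rest, with a highest rho to another member of 0.21, to Il6. The 7 points share their lists' depth and length, and genes with a rho of 1 to a member included Fnta for Il6, Atoh8 for Il11 and Nfe2l2 for Ccl7. The measure describes an order of percentiles in these lists.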

How the data were processed

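ChIP-seq of 3 fibroblast types was analysed as 17 peak lists, 1 per library, from 24 samples; the 7 inputs were not used here. Per the study's methods and the submitters' processing notes, reads were trimmed (Trimmomatic), placed on mm9 (Bowtie) and turned by the authors into peaks over the matching input (MACS2). The methods also name IgG as a control of the PRRX1 ChIP. The deposited H3K27ac and PRRX1 lists give summits with a −log10 p-value as their score. The deposited H3K4me3 lists give broad regions with a fold enrichment (a ratio), a −log10 p-value, a −log10 q-value and a rescaled score, which was not used. The lowest −log10 p was 5.00 for H3K27ac and 3.00 for PRRX1. Whether PRRX1 duplicates were pooled is not stated. Depth is unknown.

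Windows were the GENCODE vM1 gene with 10 kb on each side. H3K27ac sums were compared as log2 ratios after adding 10 and called at 2-fold, and H3K4me3 widths at 1.5-fold, among genes with a value. Since a −log10 p grows with depth, sums describe lists and not amounts of mark, and ratios are read beside the median of all genes. With 1 library per group, no difference within a type could be tested, and no test across the 3 types was run. Sequences came from NCBIM37, searched for each motif on both strands except TATAAA. All 10 members are named, with gene lists of their partners. The members and lists were chosen with earlier results of these data known. Groups came from sample titles. Python 3.11.15, numpy 2.4.6, pandas 2.3.3 and matplotlib 3.10.9 were used. Window sums and folds were tested on simulated data. Alternatives were another flank, pseudocount, score minimum, list size, centring, start, call and stitching distance.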

Additional observations from a re-analysis of the deposited data

Results flagged for a closer look

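Cxcl5, Ccl7 and Cxcl1 had values that pointed in opposite directions in different fibroblast types, each beyond the size used for a call. Each group is a single library, and the differences were not tested. For Cxcl5, the log2 ratio of H3K27ac, SG over WT, was 1.38 in MMTV-CAF and -1.62 in MEF, and the MMTV-CAF call was lost by number of summits. For Ccl7 it was 1.96 in Wound and -1.01 in MEF, and most of the Ccl7 summits lie also in the window of Ccl2. Neither Ccl7 call was made with 50 kb flanks or a pseudocount of 50, and the MEF call, at 2.02-fold, was also lost in lists of equal size and at summits with a −log10 p of at least 10. The H3K4me3 region over the Cxcl1 start had a log2 ratio of width, SG over WT, of 1.18 in Wound and -0.92 in MEF. The fold over input of the same regions did not follow, with a log2 ratio of -0.15 in Wound and 0.04 in MEF, and the Wound call was lost at regions with a −log10 p of at least 10.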

How the results depend on the processing

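No paired analysis was possible because every group is 1 library and the labels give no replicate numbers. Leaving out a replicate does not apply. Under the alternatives 226 counts stayed within 1.5 times the reported count and 104 moved, as follows. Counts are of members, and the cause was not tested. Depth is unknown, so weak summits and short regions limit all counts.

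H3K27ac, SG or KI against WT. KI lower, 8 as reported, was 2 with a pseudocount of 50, 3 in lists of equal size, 0 when centred on the median of all genes and 4 by number of summits, and KI higher was 1 (Cxcl5) when centred, so that the balance of KI calls turned there. MEF SG lower, 2 as reported, was 4 when centred and by number of summits, and 1 with 50 kb flanks, a pseudocount of 50, equal sizes or summits of at least 10. MEF SG higher, 0 as reported, was 1 (Lif) at 1.5-fold, with 2 kb flanks and by number. The median log2 ratio of the members in MEF SG, -0.30 as reported, was 0.07 with 2 kb flanks, 0.18 with 50 kb flanks and 0.13 at equal sizes, and was below that of all genes in each of these 3 as well. MMTV-CAF SG higher, 6 as reported, was 3 by number of summits and 4 to 7 otherwise. Wound SG lower, 0 as reported, was 1 (Cxcl12) at 1.5-fold, centred, at equal sizes and with a pseudocount of 1. Wound SG higher, 1 as reported, was 6 at 1.5-fold, 2 by number and with a pseudocount of 1, and 0 with 50 kb flanks or a pseudocount of 50. The 6 at 1.5-fold stand beside a median log2 ratio of 0.55 for all genes and 0.68 for the members, so that call lies close to the shift of all genes.

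H3K27ac between types. The members' median in MMTV-CAF against MEF, 0.06 as reported and below that of all genes, was -0.22 by number of summits, and was above that of all genes with 50 kb flanks (0.44 against 0.29) and at summits of at least 10 (0.34 against 0.28). MMTV-CAF against MEF gave 2 lower at 1.5-fold and at equal sizes, and 1 higher at 1.5-fold, with 2 kb or 50 kb flanks, by number or at summits of at least 10. Wound against MEF gave 9 lower at 1.5-fold, and 1 higher (Lif) at 1.5-fold, centred, with 2 kb flanks, at equal sizes or by number. MMTV-CAF against Wound gave 2 higher when centred or with a pseudocount of 50, where lower was 2 and 0.

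H3K4me3. At a 2-fold call the narrower count was 0 in KI, 0 in MEF SG and 1 in Wound against MEF, and the wider count 1 in Wound SG, 1 in MMTV-CAF against MEF and 0 in Wound against MEF. Centred, narrower was 0 in KI, 1 in Wound SG and 1 in MMTV-CAF against Wound, and wider 1 in MMTV-CAF against MEF. By fold enrichment, narrower was 0 in MEF SG, MMTV-CAF SG and Wound against MEF, and wider 0 in Wound SG, 0 in Wound against MEF and 2 in MMTV-CAF against Wound. At equal sizes MMTV-CAF SG gained 1, Wound SG lost 0 and gained 1, Wound against MEF lost 1 (Il6) and gained 0, and MMTV-CAF against Wound gave 2 wider and 5 gained. Within 1 kb of a start KI lost 3, MEF SG lost 2, MMTV-CAF SG gained 1, MMTV-CAF against MEF gave 1 narrower, 5 wider, 0 lost and 1 gained, Wound against MEF lost 2, and MMTV-CAF against Wound had 1 narrower and 0 lost. At regions of at least 10, KI lost 2, MEF SG lost 1, MMTV-CAF SG gained 1, Wound SG had 1 wider, lost 2 and gained 0, Wound against MEF lost 1 and gained 0, and MMTV-CAF against Wound had 2 wider and 5 gained. At the 5′ start only, KI had 0 narrower and lost 2, MMTV-CAF SG and Wound SG each had 1 wider, and Wound against MEF had 0 wider.

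PRRX1 and clusters. PRRX1 members were 0 in all 3 types at summits of at least 10 and 3 in MMTV-CAF at 5. They were 1 in MEF and 2 in Wound with 2 kb flanks, 8 in MMTV-CAF with 50 kb flanks, and 0 in MMTV-CAF and 1 in Wound at equal sizes. Members in large clusters were 1 in MEF SG and 1 in Wound WT with 500 top clusters, 2 in MEF WT and 1 in MEF SG at equal sizes, and 4 in MEF SG and 2 in MMTV-CAF WT when stitched within 5 kb.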
